A study of Mus musculus with 6 samples.

Results

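The genes described here are 10 components of protein quality control and the ubiquitin system, out of 56953 rows in a count table of mouse tailbud RNA. They were chosen by function and by position, as chaperone, translocon, ubiquitin and UFM1 pathway genes on parts of chromosomes 4, 6 and 15 where the names of the rows fit the reads. Vcp, Rad23b and Ubap1 handle ubiquitinated proteins, Ube2h, Ube2j1 and Ufl1 attach ubiquitin or UFM1, and Otud6b removes ubiquitin. Cct5 and Bag1 are chaperone components, and Sec61b is part of the protein channel of the endoplasmic reticulum. The libraries were 3 from Fgfr1 FCPG/FCPG embryos, whose receptor carries point mutations at residues that bind its signaling effectors, and 3 from Wild-type embryos. Polyadenylated RNA came from microdissected tailbuds at E9.5 (embryonic day 9.5) in both, labelled as neuromesodermal progenitors (NMPs) with somitic and intermediate mesoderm. The labels give neither the litters nor whether embryos were pooled. The question of the study was which transcripts of early mesoderm depend on canonical FGF signaling.

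A protein that folds wrongly, or that a cell no longer needs, is marked with chains of ubiquitin by a cascade of activating, conjugating and ligating enzymes, and the marked protein is taken to the proteasome. The ATPase Vcp pulls such proteins out of membranes and complexes, and shuttle factors such as Rad23b carry them onward. Ubiquitin also sorts cell surface receptors, among them receptor tyrosine kinases, into endosomes for degradation, a route in which the complex that holds Ubap1 takes part. UFM1 is a ubiquitin-like protein whose attachment acts mainly at ribosomes on the endoplasmic reticulum.

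Row names could be trusted only over part of the genome. Of 1138 genes of ubiquitous families laid out along the chromosomes, 375 reached a mean of 10 CPM (the counts of a gene scaled to the size of its library), although nearly all such genes are active in any tissue. On 3 stretches, of chromosomes 4, 6 and 15, all 52 such genes reached it, by the way the stretches were chosen, against 323 of 1086 elsewhere. No gene of the quality control and ubiquitin lists took part in that choice. Of 37 further genes of these lists on the stretches, 31 reached 10 CPM, against 290 of 944 elsewhere. All 10 members reached it too, with a median of 431 CPM. They were chosen with earlier results of these data known, so this is no check of their names. The nearest ubiquitous genes on either side of each member stood between 20.4 CPM for Srsf12, next to Ube2j1, and 2706 CPM for Anp32b, next to Sec61b. Names were thus examined by neighbourhood, not gene by gene. Rad23b and Ube2h lay outside the shorter stretches obtained with a minimum of 20 CPM.

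Library totals ran from 16984568 to 27316475 counts, and the shallowest library was FCPG replicate 2. That library also stood apart for a mesenchymal and a neural marker on the stretches. Col1a2 was at 283, 924 and 574 CPM in FCPG replicates 1 to 3 and at 167, 212 and 219 CPM in wild type, and Pou3f2 was at 49.8, 306 and 20.8 CPM in FCPG and at 11.7, 7.21 and 4.23 CPM in wild type. Their part in the values of the members was not tested, and values without FCPG replicate 2 are given below where they moved a member by over 1.5 times, turned it or changed a call, and for some others. The row named Fgfr1 lies outside the stretches, so its 25.3, 29.2 and 28.8 CPM in FCPG replicates 1 to 3 and 29.1, 29.7 and 26.8 CPM in wild-type replicates 1 to 3 do not check the genotype. Likewise the tailbud markers T, Fgf8, Tbx6 and Cdx2 lie outside, so the labelled tissue was not checked. Summed Y-linked genes stood at 942 and 656 CPM in FCPG replicates 2 and 3 and at 584 CPM in wild-type replicate 1, and at no more than 0.598 CPM in the other 3 libraries. These rows lie outside the stretches too, so their names were not checked, and the term for embryo sex used below rests on them. Of 8 erythroid markers 4 lie on the stretches, and their summed level was 41.4 to 56.3 CPM in FCPG libraries and at least 127.2 CPM in each wild-type library. Of these, Hemgn and Tspan33 fell in FCPG, Tmod1 did not pass the test, and Bpgm stood near 0. The mitochondrial genome took 5.53% to 6.498% of the counts in FCPG libraries and 11.04% to 14.13% in wild-type libraries. Mitochondrial rows lie outside the stretches too, and their names were not checked. With library sizes taken without mitochondrial and erythroid genes, no member passed and none changed direction. That fit could hardly differ, since the scaling between libraries (TMM), recomputed in it, largely offsets a change of library size. On the log2 scale Cct5 went from 0.3134 to 0.3122 and Sec61b from -0.2926 to -0.2938. The fit is therefore no check of the makeup of the tissue. With a term for embryo sex no member passed, and Vcp alone changed sign, at 0.0052 on the log2 scale. The part of blood cells within the tissue was not tested. In bulk tissue, fewer cells of a type and less RNA per cell cannot be told apart.

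None of the 10 members passed the test between the genotypes. With edgeR's quasi-likelihood test and Benjamini-Hochberg adjustment over all 14550 features, 0 of 10 had an adjusted p below 0.05, against 7.92% of all features and 13.7% of the 614 tested genes on the stretches. At an unadjusted p below 0.05 there were 5 of 10, of which 4 were higher and 1 lower in FCPG, against 25.6% of all features and 35.2% of the stretch genes. In the same 5 genes, Cct5, Rad23b, Ube2h, Ufl1 and Sec61b, the libraries of the genotypes did not overlap, against 31.9% of all features and 37.5% of the stretch genes. Lying wholly above wild type were 4 members, 15.8% of all features and 23.8% of the stretch genes, and wholly below 1 member, 16.1% and 13.7%. The DESeq2 Wald test and limma-voom each called 1 member, Cct5, against 12.1% and 7.4% of all features. The log2 fold changes, FCPG over wild type, ran from -0.29 for Sec61b to 0.31 for Cct5, with a median of 0.096, against -0.0062 over all features and 0.079 over the stretch genes. The median size of the change, without its sign, was 0.20 for the members, 0.27 for all features and 0.30 for the stretch genes. Every member had at least 2176 counts in every library, and its standard errors had a median of 0.091 on the log2 scale, against 0.21 over all features. In the fit on all libraries, the unadjusted 95% intervals of the 10 log2 fold changes reached at most 0.57 from 0. This is short of the 0.585 of a 1.5-fold change, so changes of that size lay outside the interval of each gene taken singly. The margin is narrow and belongs to that fit: without FCPG replicate 1, Sec61b had -0.38 ± 0.12 (SE).

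**Figure D1:**
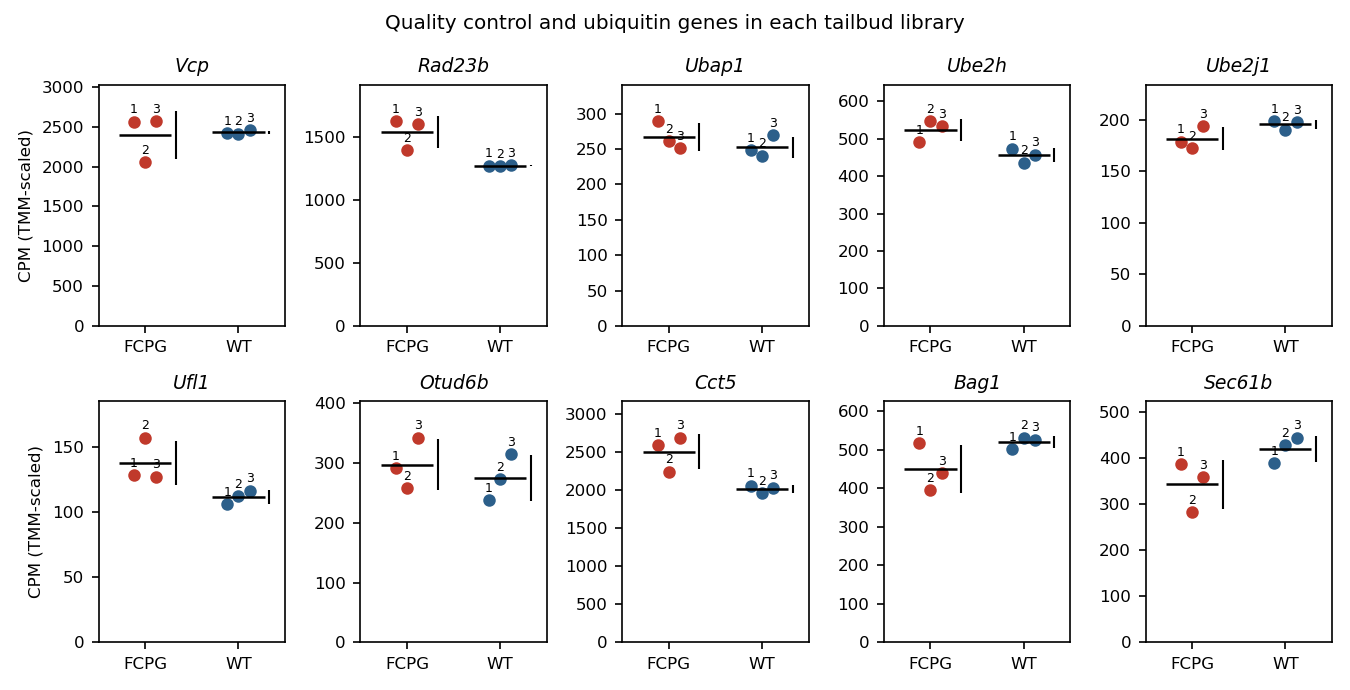
Levels of the 10 genes in CPM on TMM-scaled library sizes (vertical axes from 0) in the 3 FCPG libraries (red, left) and 3 wild-type libraries (blue, right). Digits are replicate numbers, horizontal lines are means and vertical lines are 1 SD; the genotypes do not overlap for Rad23b, Ube2h, Ufl1, Cct5 and Sec61b, and FCPG replicate 2 is the lowest mutant library in 7 of the 10 genes.

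**Figure D2:**
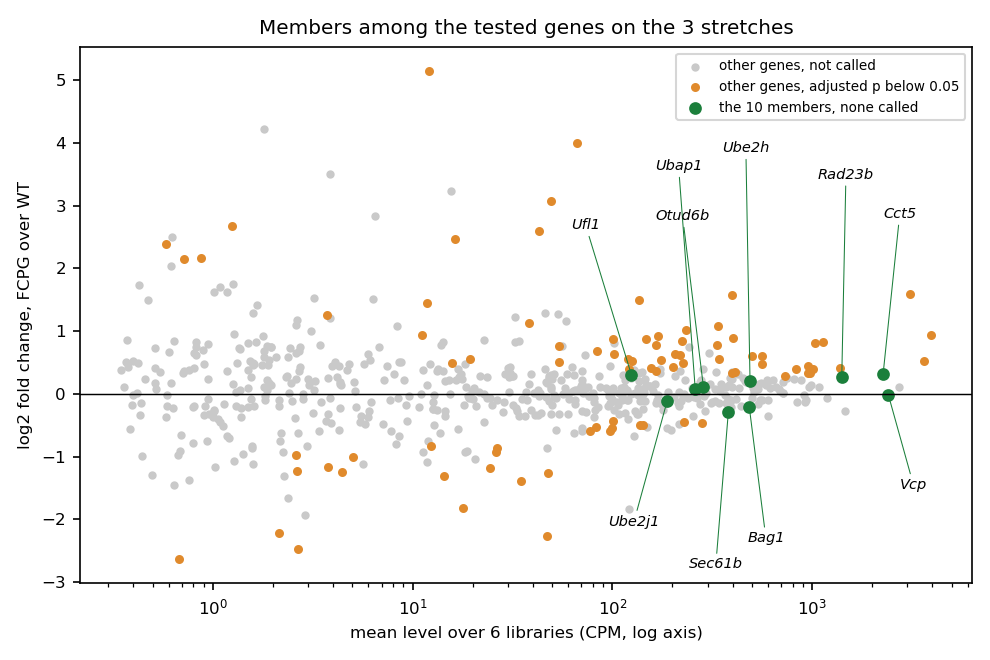
Mean level over the 6 libraries (CPM, log axis) against the log2 fold change, FCPG over wild type, for the 614 tested genes on the 3 stretches. The members (green) lie between -0.29 and 0.31, while the 84 called genes (orange) include both abundant and scarce transcripts.

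Short promoter windows of 4 members are shown because they hold letters of stress response elements, whose known targets include genes of this kind. RefSeq promoters of build GRCm38.p6, 250 bases before to 50 after the start, were matched for 9 of the 10 members, Otud6b being the exception. Searched on both strands were the unfolded protein response element TGACGTGG, the longer ER stress response element known as ERSE, and the pairs of heat-shock units GAANNTTC and TTCNNGAA, each of which reads the same on both strands. TGACGTGG was present in Vcp and Ube2j1, which both act in degradation from the endoplasmic reticulum, and in 0.676% of all 32851 promoter windows. The ER stress response element ends in CCACG, letters that the opposite strand of TGACGTGG also holds, and was in none of the 9 and in 0.119% of all windows. GAANNTTC was in Vcp and in 7.86% of all windows, and TTCNNGAA was in Cct5 and Ufl1 and in 8.52%. Capitals mark the matched letters, the sequences run 5′ to 3′ on the strand of the gene, and the match in Ube2j1 is on its opposite strand.
Vcp, chr4:43000584-43000651, minus strand: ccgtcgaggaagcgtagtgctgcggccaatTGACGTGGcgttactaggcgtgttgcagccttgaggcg
Ube2j1, chr4:33031282-33031349, plus strand: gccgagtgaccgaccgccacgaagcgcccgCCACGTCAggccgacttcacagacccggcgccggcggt
Ufl1, chr4:25281835-25281902, minus strand: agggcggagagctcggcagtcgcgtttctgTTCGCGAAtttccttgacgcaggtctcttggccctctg
Cct5, chr15:31601847-31601910, minus strand: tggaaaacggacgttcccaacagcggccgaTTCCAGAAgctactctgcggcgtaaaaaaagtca
These coordinates belong to the RefSeq table and not to the mm39 build of the counts. The TGACGTGG match of Vcp lies 114 to 107 bases before its start site. Its GAANNTTC match, whose window is not shown, lies 60 to 53 bases before that site. The match of Ube2j1 lies 68 to 61 bases before its start site, that of Ufl1 51 to 44 and that of Cct5 34 to 27. Of these 4 genes, Vcp, which holds both TGACGTGG and a heat-shock unit pair, had a log2 fold change of -0.020, and Ube2j1 of -0.11. Ufl1 and Cct5 had 0.30 and 0.31, and none of the 4 genes passed the threshold. A match of letters is a description of the sequence and does not show that a factor binds there.

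Per kilobase of annotated exon, Cct5 had the highest level, at 908 ± 85.0 CPM per kb in FCPG and 731 ± 18.3 in wild type (SD, n = 3 each, as for all such values). Vcp followed with 493.5 ± 61.2 CPM per kb in FCPG and 500.3 ± 4.76 in wild type, and Bag1 with 334 ± 46.0 and 385 ± 11.8. Sec61b, at 269 ± 42.1 CPM per kb in FCPG and 329.9 ± 22.1 in wild type, and Rad23b, at 269 ± 22.2 and 222 ± 0.446, had like means in FCPG and separate ones in wild type. Ube2h stood at 109 ± 6.14 CPM per kb in FCPG and 95.2 ± 3.94 in wild type. Otud6b, at 87.6 ± 12.4 and 81.1 ± 11.4, and Ubap1, at 74.6 ± 5.51 and 70.6 ± 4.12, came next, with spreads that touch in FCPG and in wild type. Ube2j1 had 51.4 ± 3.14 CPM per kb in FCPG and 55.3 ± 1.30 in wild type, and Ufl1 was lowest, with 24.1 ± 2.97 and 19.6 ± 0.901. Exon lengths were taken from GENCODE M21, so this order depends on that annotation.

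Vcp, the AAA ATPase that extracts ubiquitinated proteins from membranes and complexes, stood at 2564, 2052 and 2567 CPM in the FCPG libraries and at 2417, 2411 and 2454 CPM in the wild-type libraries, each given in the order of their replicate numbers here and below. The wild-type libraries lay close together inside the range of the FCPG libraries, of which replicate 2 was the low one. Its log2 fold change was -0.020 ± 0.096 (SE, edgeR adjusted p = 0.923), with a 95% interval of -0.24 to 0.20. Without FCPG replicate 2 it was 0.090 (adjusted p = 0.309 by edgeR). The exons of Vcp share 7.26% of their bases with 1700022I11Rik on the other strand, a row at 0.243 CPM.

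Rad23b, which binds ubiquitin chains and the proteasome and also partners Xpc in DNA repair, stood at 1627, 1395 and 1602 CPM in FCPG and at 1274, 1273 and 1278 CPM in wild type. Every FCPG library was above every wild-type library, and the wild-type values were nearly identical. The log2 fold change was 0.27 ± 0.078 (SE), with a 95% interval of 0.094 to 0.45, and missed the threshold (adjusted p = 0.0701 by edgeR). Without FCPG replicate 2, the lowest mutant library, it was 0.35 and passed (adjusted p = 0.0159 by edgeR), in a fit that called 6.01% of all features. Without the low-count filter, where 7.51% of features were called, it passed as well (edgeR adjusted p = 0.0217). Over its 14 alternative fits the adjusted p ran from 0.0159 to 0.225.

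Ubap1, a subunit of the ESCRT-I complex that recognises ubiquitinated cargo on endosomes, had 289, 261 and 251 CPM in FCPG and 248.5, 241 and 269 CPM in wild type. The genotypes overlapped, with FCPG replicate 1 the highest of all libraries. Its log2 fold change was 0.080 ± 0.085 (SE), with a 95% interval of -0.12 to 0.28 (adjusted p = 0.605 by edgeR). With 1 library left out it was as low as 0.028, without FCPG replicate 1, and 0.045 without wild-type replicate 2. It was 0.14 without FCPG replicate 3 and 0.13 without wild-type replicate 3, and no such fit called it.

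Of the enzymes that attach ubiquitin or UFM1, Ube2h and Ufl1 were higher in every FCPG library than in any wild-type library, without passing the test. Ube2h, a ubiquitin-conjugating enzyme that works with the multisubunit CTLH ligase and is abundant in maturing red blood cells, stood at 489.8, 546 and 533 CPM in FCPG and at 473, 436 and 457 CPM in wild type. The gap between the lowest FCPG and the highest wild-type library was smaller than the spread within either genotype. Its log2 fold change was 0.20 ± 0.075 (SE, 95% interval 0.027 to 0.37, adjusted p = 0.141 by edgeR). The summed erythroid markers given above were lower in FCPG, and the part of blood cells in the level of Ube2h was not tested.

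Ufl1, the ligase that joins UFM1 to its targets, stood at 128, 157 and 127 CPM in FCPG and at 106, 112.5 and 116.5 CPM in wild type. FCPG replicate 2 was the highest library, and the other FCPG libraries lay close above the wild-type range. In log2 terms the fold change was 0.30 ± 0.10 (SE, 95% interval 0.060 to 0.54, adjusted p = 0.117 by edgeR). Without FCPG replicate 2 it was 0.20 (adjusted p = 0.164 by edgeR). Counted exons of Ufl1 share 1.68% of their bases with Gm11906 on the other strand, a row at 0.218 CPM, and the strand setting of the counting is not given in the sources used here.

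Ube2j1, a conjugating enzyme anchored in the membrane of the endoplasmic reticulum that acts in the degradation of proteins from there, stood at 179, 172 and 194 CPM in FCPG and at 198, 190.1 and 198 CPM in wild type. FCPG replicates 1 and 2 lay below the wild-type range and replicate 3 inside it. Its log2 fold change was -0.11 ± 0.078 (SE, 95% interval -0.29 to 0.073, adjusted p = 0.437 by edgeR), and it was -0.059 without FCPG replicate 2 (adjusted p = 0.672).

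Otud6b, a deubiquitinase of the OTU family, stood at 291, 258 and 342 CPM in FCPG and at 237, 273 and 314 CPM in wild type. The genotypes overlapped widely, and its standard error was the largest among the members. Its log2 fold change was 0.11 ± 0.13 (SE, 95% interval -0.19 to 0.42, adjusted p = 0.639 by edgeR). It moved with single libraries, to 0.013 without FCPG replicate 3 and 0.026 without wild-type replicate 1. Without FCPG replicate 2 it was 0.21 and without wild-type replicate 3 it was 0.23, and no such fit called it.

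Cct5, a subunit of the cytosolic chaperonin CCT/TRiC that folds actin and tubulin, had the largest difference. It stood at 2598, 2246 and 2692 CPM in FCPG and at 2062, 1965 and 2038 CPM in wild type. Every FCPG library was above every wild-type library, with FCPG replicate 2 nearest to them. The log2 fold change was 0.31 ± 0.084 (SE, 95% interval 0.12 to 0.51) and missed the threshold narrowly (adjusted p = 0.0584 by edgeR). It passed in 4 of 14 alternative fits: the DESeq2 Wald test (adjusted p = 0.0408), limma-voom (adjusted p = 0.0489), edgeR without the low-count filter (adjusted p = 0.00347) and edgeR without FCPG replicate 2, where it was 0.40 (adjusted p = 0.0149). Over all 14 the adjusted p ran from 0.00347 to 0.216. The authors' deposited table gave Cct5 a log2 fold change of 0.32 and an adjusted p of 0.0388, and no other member an adjusted p below 0.0655. Of the 14923 features in the authors' deposited table, 12.1% had an adjusted p below 0.05. The nearest ubiquitous genes on either side, Drosha and Mtdh, stood at 875 and 601 CPM.

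Bag1, which releases nucleotide from Hsp70 chaperones and links them to the proteasome, stood at 517, 394 and 439 CPM in FCPG and at 501, 530.5 and 526 CPM in wild type. FCPG replicates 2 and 3 were below all wild-type libraries, while replicate 1 lay within their range. In log2 terms the fold change was -0.21 ± 0.10 (SE, 95% interval -0.44 to 0.030, adjusted p = 0.251 by edgeR), and it was -0.11 without FCPG replicate 2 (adjusted p = 0.449) and -0.31 without FCPG replicate 1 (adjusted p = 0.0970).

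Sec61b, the small beta subunit of the Sec61 translocon through which new proteins enter the endoplasmic reticulum, stood at 386, 283 and 358 CPM in FCPG and at 388, 427 and 443 CPM in wild type. Every FCPG library was below every wild-type library, although FCPG replicate 1 and wild-type replicate 1 nearly touched. The log2 fold change was -0.29 ± 0.12 (SE, 95% interval -0.57 to -0.019, adjusted p = 0.170 by edgeR). Without FCPG replicate 2 it was -0.16 (adjusted p = 0.247 by edgeR).

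**Figure D3:**
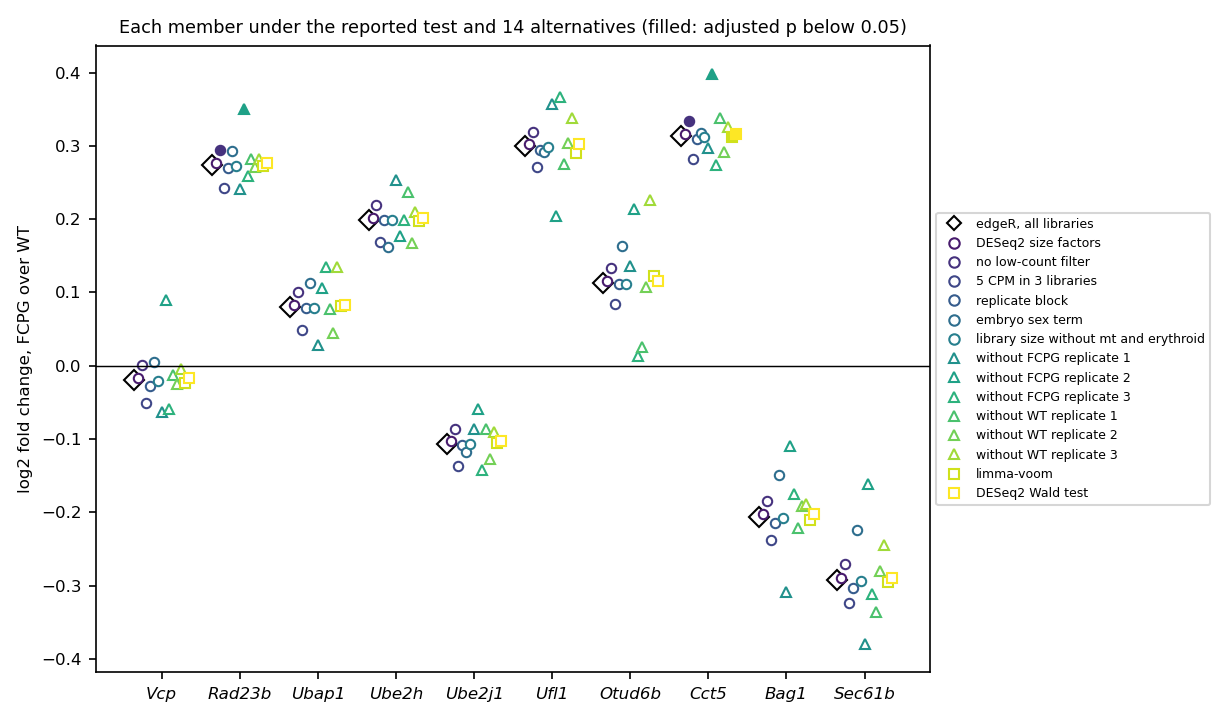
Log2 fold change, FCPG over wild type, of each member with edgeR on all libraries (black diamonds) and in 14 alternative fits; filled symbols have an adjusted p below 0.05. The filled symbols are all at Cct5 and Rad23b, and in the members other than Vcp every symbol lies on the same side of 0.

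Beyond the members, 37 protein-coding genes on the stretches belong to the same families by their symbols, and 33 of them were tested. In FCPG 4 rose and 2 fell, while 27 did not pass, and the median log2 fold change of the 33 was 0.098. Called higher were 9.45% of the stretch genes and 4.25% of all features, and called lower were 4.23% and 3.67%. The genes not tested, Txndc8, Asb15, Rnf133 and Rnf148, stood at 0 to 0.0629 CPM.

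Among ubiquitin-binding and proteasome factors, 1 of 3 rose and none fell. Ecpas, a scaffold that binds the proteasome, stood at 627, 605 and 576 CPM in FCPG and at 431, 385 and 368 CPM in wild type, with no overlap. Its log2 fold change was 0.61 ± 0.083 (SE, adjusted p = 0.00805 by edgeR). It kept its call in 13 of 14 alternative fits, and leaving out wild-type replicate 2 ended it (edgeR adjusted p = 0.0611). Like Rad23b it lies outside the stretches set with a minimum of 20 CPM.

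Of 17 tested ubiquitin ligases and adaptors, 2 rose and 1 fell. Asb4, a substrate adaptor of cullin ligases that is imprinted, stood at 184, 246 and 170.2 CPM in FCPG and at 88.9, 74.9 and 48.0 CPM in wild type (log2 fold change 1.499 ± 0.23 SE, edgeR adjusted p = 0.0106). Of its 14 alternative fits, leaving out wild-type replicate 2 was the one that ended the call (edgeR adjusted p = 0.0657). Klhdc10, a substrate receptor of a cullin ligase that also lies outside the 20 CPM stretches, stood at 719, 672 and 568 CPM in FCPG and at 501, 476 and 437 CPM in wild type (log2 fold change 0.47 ± 0.10 SE, edgeR adjusted p = 0.0316). Wwp1, a ligase of the Nedd4 family, fell to 207, 193 and 182 CPM in FCPG, against 229, 282 and 285.5 CPM in wild type (log2 fold change -0.45 ± 0.10 SE, edgeR adjusted p = 0.0377).

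Chaperones and folding enzymes other than the members moved in both directions, with 1 of 5 higher and 1 lower. Dnajc21, a J-domain protein of ribosome assembly, stood at 178, 186 and 196.5 CPM in FCPG and at 152, 138 and 147 CPM in wild type (log2 fold change 0.36 ± 0.080 SE, edgeR adjusted p = 0.0339). Dnajb5, a J-domain partner of Hsp70, fell to 67.0, 60.3 and 56.6 CPM in FCPG, against 86.3, 80.6 and 111 CPM in wild type (log2 fold change -0.60 ± 0.14 SE, edgeR adjusted p = 0.0366). The calls of Klhdc10, Wwp1, Dnajc21 and Dnajb5 were less stable than those of Ecpas and Asb4. A term for embryo sex ended all 4, and a block for replicate number ended those of Wwp1, Dnajc21 and Dnajb5. Leaving out 1 library ended those of Klhdc10, Wwp1 and Dnajc21 in 5 of 6 fits each and that of Dnajb5 in all 6. None of these 4 genes changed direction.

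In the other groups no gene passed. Of 4 further genes of the endoplasmic reticulum, Calu, a calcium-binding protein of the secretory pathway, had a log2 fold change of -0.070 (adjusted p = 0.672 by edgeR). Ube2r2, the only further conjugating enzyme, had 0.14 (adjusted p = 0.235 by edgeR). Of 3 genes listed with the deubiquitinases, Usp45 had -0.011 (adjusted p = 0.956 by edgeR) and Otulin, which cleaves linear ubiquitin chains, 0.098 (adjusted p = 0.570). Otulinl, named after its values were seen, had -0.92 ± 0.27 (SE, adjusted p = 0.0718 by edgeR) at a mean of 11.3 CPM. Every FCPG library was below every wild-type library. It passed by the DESeq2 Wald test (adjusted p = 0.00787), and by edgeR without the low-count filter (6.88e-05) and without wild-type replicate 1 (0.0364), and in no other fit.

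**Figure D4:**
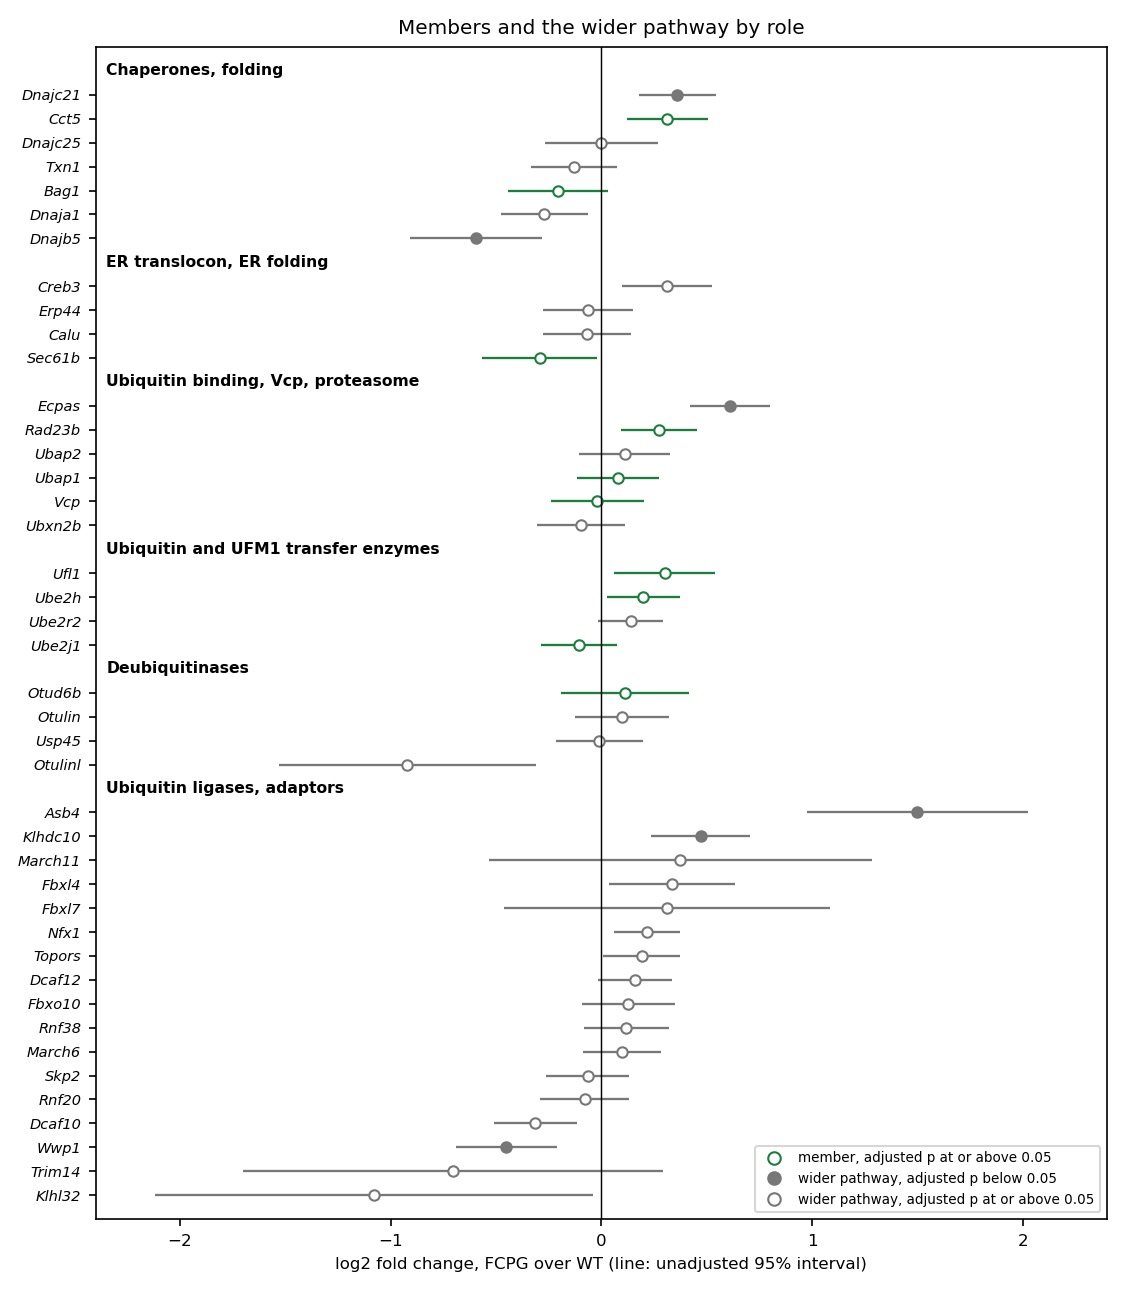
Log2 fold change, FCPG over wild type, with its unadjusted 95% interval for the 10 members (green) and 32 further genes of the same families (grey), grouped by role. Filled points passed the edgeR test: Dnajc21, Ecpas, Asb4 and Klhdc10 lie right of 0 and Dnajb5 and Wwp1 left of it.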

How the data were processed

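Tailbud RNA was sequenced from stranded mRNA libraries. The deposited counts are raw, in whole numbers, with 1 row per Ensembl ID. The tools in the submitters' processing notes are featureCounts, Bowtie, DESeq and DESeq2, with mm39 as the build. Tool versions, the strand setting of the counting and the annotation release are not given in the sources used here. A deposited results table, per the file headers, holds a mean normalized signal, a log2 fold change with its standard error, a Wald score, a p-value and an adjusted p-value, and it was only quoted. Count columns carry an unexplained 10-5 in their names where the labels give E9.5, and were matched by genotype and replicate number.

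IDs were cut to 18 characters, since 12804 carried a leftover version digit, and 52029 of 56953 matched a symbol. Rows without a symbol held 1.25% of the counts. Gene order and exons came from GENCODE M21, on an older build than mm39, and promoters from RefSeq on GRCm38.p6. Stretches were found without using the genotype, by a hidden Markov model over ubiquitous genes, with a detection chance at 10 CPM of 0.95 where names fit and 0.25 elsewhere, a switch chance of 0.03, a posterior above 0.95 and runs of at least 6 genes. Members, lists and these settings were chosen with earlier results of these data known.

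Counts were tested with edgeR 4.0.16 in R 4.3.3 (glmQLFit, glmQLFTest, filterByExpr by group, TMM, no covariate), with calls at an adjusted p below 0.05 over all 14550 features. Standard errors were derived from the F statistic. Alternatives were DESeq2 size factors, the DESeq2 1.42.0 Wald test, limma-voom (limma 3.58.1), no low-count filter, at least 5 CPM in 3 libraries, a replicate block, an embryo sex term, library sizes without mitochondrial and erythroid genes, and each library left out. The fit was tested on simulated data with planted changes of 2-fold and 4-fold, of which 81 of 100 and 99 of 100 were recovered. Changes as small as those of the members were not simulated. All members and all called genes of the wider list were named, with the 2 most abundant genes of each role without calls, except 1 gene that is counted in the totals but not reported here. No libraries were duplicates, as the smallest chi-square per degree of freedom between a pair was 24.6. The labels do not say that libraries came from separate litters, so p-values measure the spread between these libraries, 3 a group.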

Additional observations from a re-analysis of the deposited data

How the results depend on the processing

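With 3 libraries a group, differences near 0.3 on the log2 scale sit at the threshold, and the count of members called changes with the fit: 0 higher and 0 lower as reported, 2 higher without the low-count filter, and 1 higher each by limma-voom and the DESeq2 Wald test. Leaving out each library gave 0 to 2 higher members and 0 lower; the 2 came without FCPG replicate 2. Members other than Vcp kept their direction in all 14 fits; Vcp turned to 0.0016 without the low-count filter, 0.0052 with the embryo sex term, and ran from -0.063 without FCPG replicate 1 to 0.090 without FCPG replicate 2. Of uncalled further genes, Calu ran from -0.12 to 0.0096 with a library left out, positive without FCPG replicate 1. Usp45 turned to 0.0092 without the low-count filter and ran from -0.067 to 0.062 with a library left out, positive without FCPG replicate 3 or wild-type replicate 1. The cause was not tested.

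Of the wider list, 4 higher and 2 lower became 2 and 0 with the embryo sex term, and 2 higher on stretches set at 20 CPM, which leave out Ecpas and Klhdc10, an alternative chosen after seeing the data. Lower genes numbered 4 without the low-count filter and 4 by the DESeq2 Wald test. Leaving out each library gave 0 to 3 higher and 0 to 2 lower. The stretch genes had 58 higher and 26 lower, against 115 and 57 without the low-count filter, 27 and 13 with the sex term, 42 lower by the DESeq2 Wald test, and 12 to 73 and 4 to 26 with a library left out. All features had 618 and 534, against 1352 and 1145, 273 and 264, 967 higher by the DESeq2 Wald test, and 66 to 783 and 63 to 565 with a library left out. The lowest counts came without wild-type replicate 2.

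The deviations of libraries with the same number correlated at -0.229, -0.005 and -0.008, which shows no pairing by number. With 3 libraries a group it cannot exclude one, since the libraries of each such pair also differed in Y-linked level. The labels say nothing on pairing. The replicate block left no member past the threshold and, over all features, 433 higher and 411 lower. In the wider list Ecpas, Asb4 and Klhdc10 kept their calls, while those of Dnajc21 (adjusted p = 0.0760 by edgeR), Dnajb5 (0.0614) and Wwp1 (0.0730) ended. The 1 gene called lower was then Klhl32, named after its values were seen. Size factors, the stricter filter and library sizes without mitochondrial and erythroid genes moved no count by more than 1.5 times.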
